A study of Mus musculus with 203 samples.

Results

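NF-kB is a family of dimeric transcription factors, and 10 genes of its circuit were followed by RNA-seq in IL4-treated mouse macrophages: the 5 subunit genes Nfkb1, Nfkb2, Rel, Rela and Relb, and 5 genes for inhibitors and regulators, Nfkbia, Nfkbie, Nfkbiz, Tnfaip3 and Bcl3. They were chosen by gene symbol, and each of the 10 symbols matched 1 row among the 25094 genes listed for the RAW cells and 1 row among the 16478 genes listed for bone marrow-derived macrophages (BMDMs). The RAW cell table gives a value for each library and is the source of every value below. The BMDM table covers cells of WT and Gps2 KO mice, untreated or given IL4. The series text describes it as holding only comparisons already computed by the authors. Its 10 rows were therefore counted and not analysed further here.

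RAW264.7 (RAW cells) is a macrophage line from the BALB/c strain. All libraries came from RAW cells carrying a lentiviral short hairpin: shGFP, directed against a jellyfish protein that mouse cells lack, or shKDM1A, directed against the histone demethylase gene Kdm1a. Each stable line was either left without cytokine or given IL4 at 20 ng/ml for 6 h, which makes 4 groups (shGFP, shGFP IL4, shKDM1A and shKDM1A IL4) of 4 libraries each. A single hairpin per target was used, so an effect of shKDM1A cannot be told apart from an effect of that hairpin or of that line. The study's methods call its replicates biological, but the labels do not say whether the 4 libraries of a group came from separate cultures, and the p-values below measure the spread between these libraries.

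The total tags per library, as listed in the table, lay between 17554721 and 27782568. Kdm1a itself had log2 values between 11.13 and 11.23 in shGFP and between 10.23 and 10.36 in shKDM1A cells, a fall to 0.542-fold (log2 fold change -0.88, SE 0.03, limma adjusted p = 5.6e-13). With IL4 the ratio was 0.58-fold (log2 fold change -0.79, SE 0.03, limma adjusted p = 2.2e-12). All 8 macrophage marker genes examined, among them Csf1r, Cd68 and Spi1, passed the filter on low values, while 0 of 5 B cell, 0 of 5 T cell, 0 of 4 fibroblast and 0 of 4 epithelial markers did. The summed level of the macrophage list, in log2 units, was lowest in shGFP IL4 (17.31 to 17.33), followed by shGFP (17.63 to 17.68), shKDM1A IL4 (17.74 to 17.83) and shKDM1A (17.83 to 17.86), the last 2 with a slight overlap, and whether it has a part in the results below was not tested. Its members did not move together: with IL4 in shGFP cells the mean of Lyz2, the most abundant, went from 16.90 to 16.37 and that of Cd14 from 14.62 to 13.69, while Adgre1 went from 9.95 to 11.18 and Csf1r from 14.98 to 15.24.

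In resting cells NF-kB dimers are held in the cytoplasm by IkB proteins, such as the product of Nfkbia (IkB-alpha). Signals from Toll-like and cytokine receptors activate the IkB kinase complex, which marks IkB for degradation and frees the dimer to enter the nucleus and bind kB sites in DNA. Several of the circuit's own genes, Nfkbia, Nfkb2, Rel and Tnfaip3 among them, are known NF-kB targets, and so the circuit feeds back on itself. IL4 acts mainly through another factor, STAT6, and pushes macrophages towards an alternative state. The 5 subunits fall into those with a transactivation domain (RELA, REL, RELB) and those made as longer precursors that are processed to DNA-binding partners (NFKB1 to p50, NFKB2 to p52).

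Promoter sequences of 3 members with different IL4 responses are shown because they share the same kind of letter pattern. The windows are from RefSeq (GRCm38.p6) and reach from 250 bases before to 50 bases after an annotated gene start. They were found for 7 of the 10 members: Bcl3, Nfkb2, Nfkbia, Nfkbie, Rel, Rela and Tnfaip3. No window was matched for Nfkb1, Nfkbiz and Relb. Below, the 250 bases before the start are printed 5′ to 3′ in the direction of the gene, and capitals mark matches, on either strand, to the 10-letter kB motif (GGG, a purine, any base, any base, a pyrimidine, a pyrimidine, CC).
Rel, chr11:23770970-23771219, minus strand: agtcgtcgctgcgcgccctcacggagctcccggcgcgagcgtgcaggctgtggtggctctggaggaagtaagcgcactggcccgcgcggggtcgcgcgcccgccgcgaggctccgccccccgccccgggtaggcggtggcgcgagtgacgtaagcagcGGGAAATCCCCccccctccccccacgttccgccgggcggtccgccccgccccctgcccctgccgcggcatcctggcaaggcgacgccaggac
Nfkb2, chr19:46304487-46304736, plus strand: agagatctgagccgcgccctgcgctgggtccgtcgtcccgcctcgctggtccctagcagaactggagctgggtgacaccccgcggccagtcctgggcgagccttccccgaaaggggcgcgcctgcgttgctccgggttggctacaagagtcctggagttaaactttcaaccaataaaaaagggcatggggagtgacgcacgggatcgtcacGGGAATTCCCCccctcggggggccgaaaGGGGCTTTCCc
Nfkbia, chr12:55492648-55492897, minus strand: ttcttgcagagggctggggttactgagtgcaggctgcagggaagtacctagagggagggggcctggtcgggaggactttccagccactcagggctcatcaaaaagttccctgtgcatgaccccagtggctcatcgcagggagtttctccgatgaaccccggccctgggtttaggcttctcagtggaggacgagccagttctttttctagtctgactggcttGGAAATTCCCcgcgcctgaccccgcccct

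In Rel, 2 overlapping matches begin 92 and 91 bases before the start, the first of which reads the same class of pattern on both strands. In Nfkb2, 2 overlapping matches begin 39 and 38 bases and another begins 11 bases before the start of this window, and in Nfkbia a match on the opposite strand begins 29 bases before it. Of the 7 members with a window, 6 (all but Rela) held the kB motif in at least 1 window, whereas 8.46% of all 32851 RefSeq windows did, or 9.55% of the 27025 genes. A related pattern (GGG and TTCC with 3 free bases between them), searched on both strands and able to overlap the first, was found in 5 of the 7 members and in 6.31% of genes. The STAT6-type palindrome (TTC and GAA with 4 free bases between them, searched likewise) was found in 1 of the 7, Tnfaip3, and in 8.01% of genes. These counts describe letters in a window, and binding was not analysed here.

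Levels between genes were compared on the log2 scale after subtracting the log2 of each gene's length in kilobases. In shGFP cells the members spanned 5.62 log2 units. Nfkbia was the highest (10.33 ± 0.03, SD, n = 4), above 89.1% of the 12905 genes tested, and was followed by Nfkb1 (9.74 ± 0.03), Rela (9.17 ± 0.03) and Nfkb2 (9.05 ± 0.05). A lower group held Relb (7.65 ± 0.08), Rel (7.21 ± 0.04), Bcl3 (7.20 ± 0.09) and Nfkbie (7.06 ± 0.08). Tnfaip3, whose product A20 is a ubiquitin-editing brake on the pathway, was at 5.59 ± 0.05, and Nfkbiz, which encodes a nuclear IkB protein, was the lowest at 4.71 ± 0.08, above 20.3% of the genes. The libraries of neighbours in this order did not overlap, except between Rel and Bcl3 and between Bcl3 and Nfkbie.

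**Figure D1:**
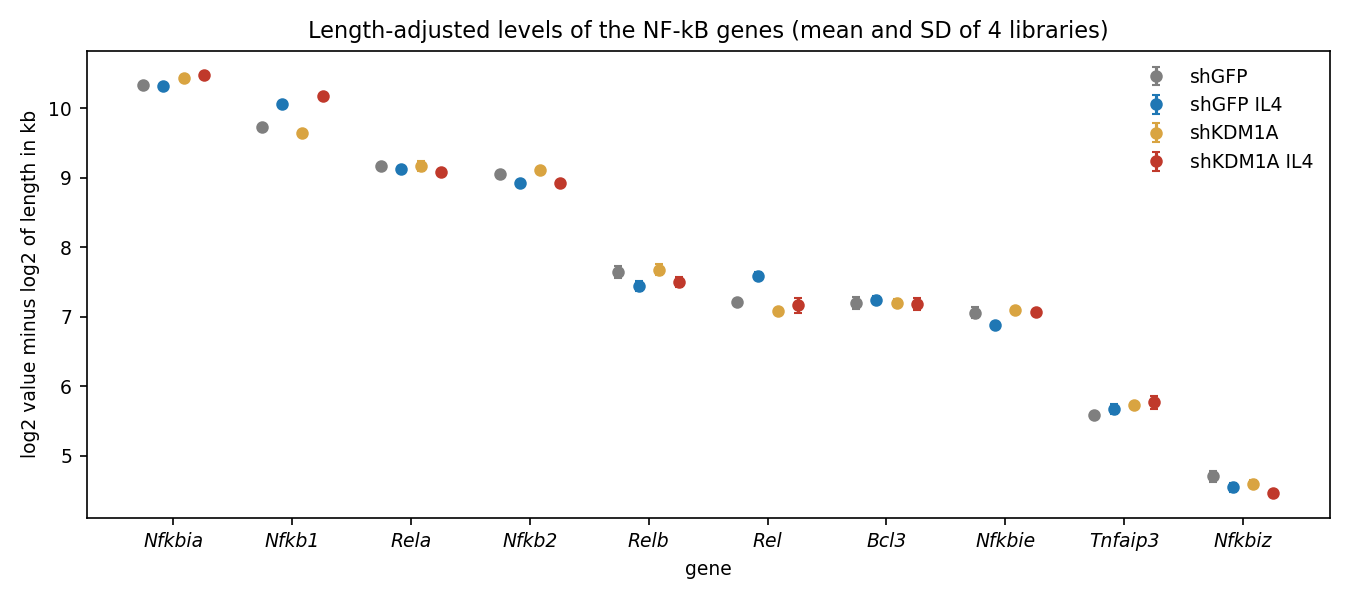
Length-adjusted level (log2 value minus log2 of length in kilobases, y axis) of each gene (x axis) in the 4 groups of RAW cells; points are means and bars SDs of 4 libraries. Nfkbia is at the top and Nfkbiz at the bottom in each group, and Rel is 5th of the 10 genes in shGFP IL4 and 8th in shKDM1A.

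Rel stood 6th in shGFP, 5th in shGFP IL4, 8th in shKDM1A and 7th in shKDM1A IL4. Its 4 libraries lay above those of Relb in shGFP IL4, but in the other groups they overlapped those of a neighbour (Bcl3 in shGFP, Nfkbie in shKDM1A, and both in shKDM1A IL4). Nfkbia, Nfkb1, Rela and Nfkb2 held the first 4 places in each group. The place of Rel depends on its length: the table lists 7450 bases, and the GENCODE vM1 exons sum to 2799 bases. With the GENCODE lengths Rel was 5th in shGFP at 8.62 ± 0.04 and Relb 7th at 6.81 ± 0.08. Nfkbia stayed the highest and Nfkbiz the lowest with either length.

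**Figure D2:**
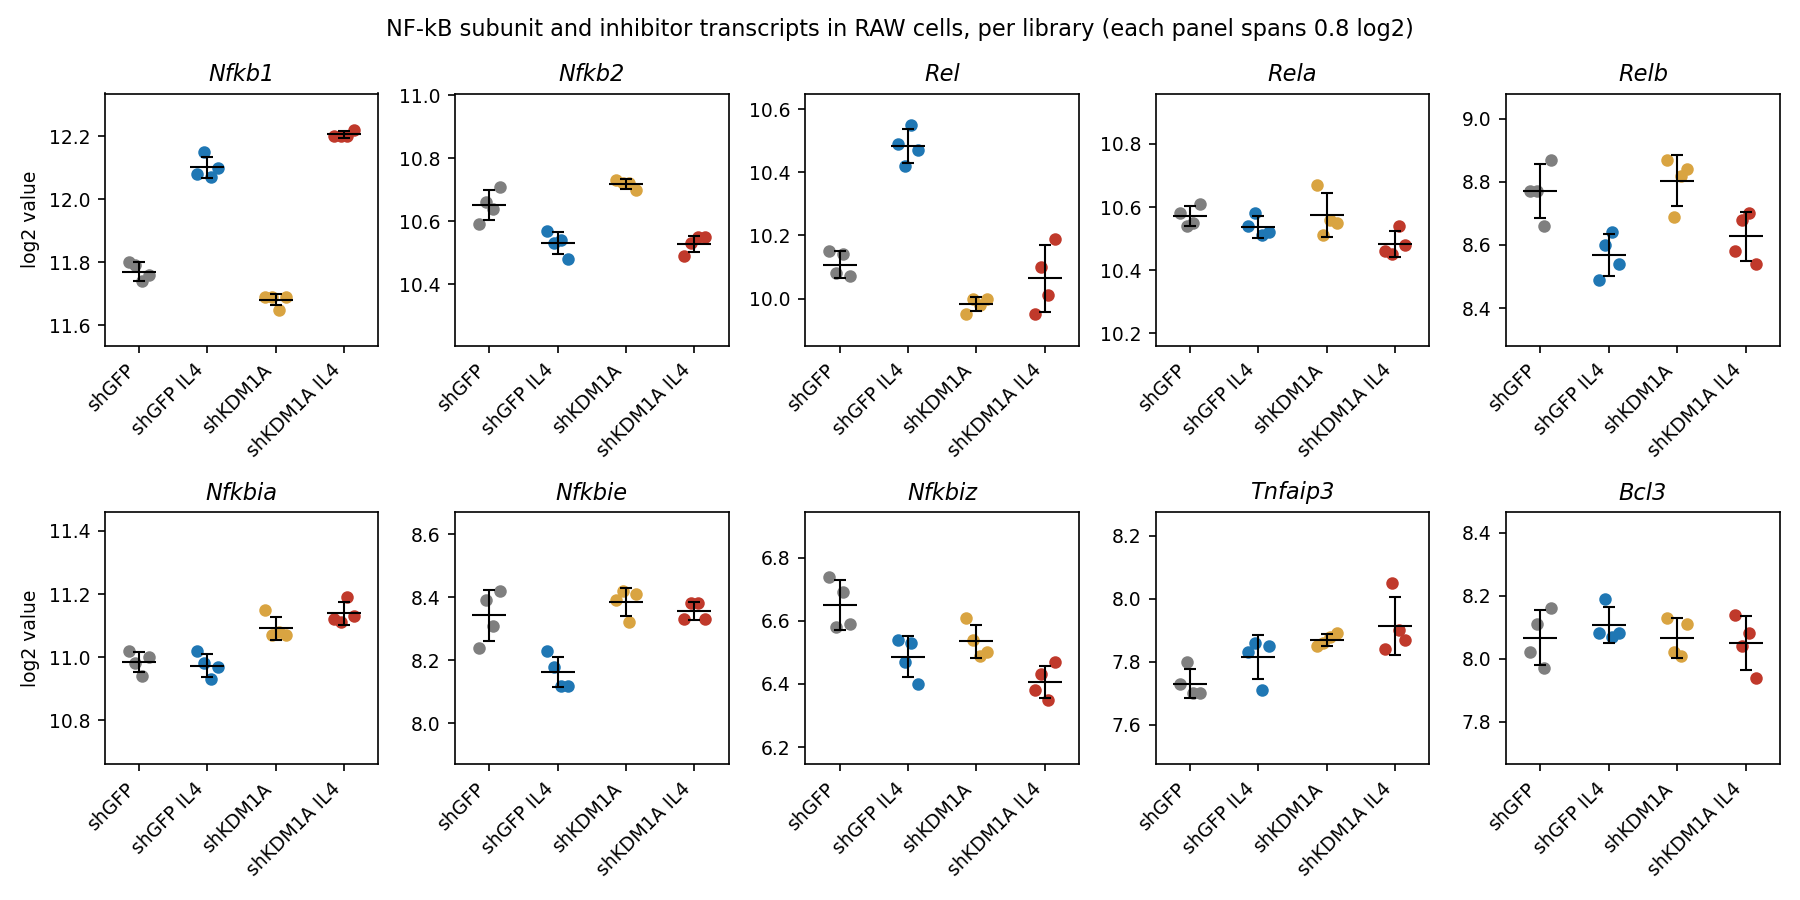
Log2 value (y axis, 0.8 log2 units in each panel) of each gene in the 16 RAW cell libraries by group (x axis); points are libraries, the long dash is the mean and the bars are the SD of 4 libraries. All shGFP IL4 libraries of Rel lie above the shGFP ones while its shKDM1A IL4 and shKDM1A libraries overlap, and Nfkb1 is raised by IL4 in both lines.

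IL4 raised Rel and Nfkb1 and lowered Relb, Nfkbie, Nfkbiz and Nfkb2 in shGFP cells. The changes were small, from a 1.3-fold rise of Rel to a 0.869-fold level of Relb. Of the 10 genes 6 passed the test, 2 higher and 4 lower, where 26.9% of all 12905 genes tested did (13.1% higher and 13.7% lower). The median absolute log2 change was 0.14 over the 10 genes and 0.05 over all genes tested. The test was limma on all 16 libraries, with Benjamini-Hochberg adjustment over all 12905 genes and a threshold of 0.05.

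Rel, at chr11:23636850-23670969 (mm9, minus strand, NM_009044), encodes c-Rel, a subunit best known from lymphoid and myeloid cells. Its log2 values were 10.15, 10.08, 10.14 and 10.07 in shGFP and 10.49, 10.42, 10.55 and 10.47 in shGFP IL4. All 4 treated libraries lay above all 4 untreated ones. The log2 fold change was 0.38 (SE 0.04, 95% interval 0.29 to 0.46, limma adjusted p = 4.0e-06), the 190th highest of the 12905. In shKDM1A cells Rel was at 9.95, 10.00, 9.98 and 10.00 without and at 9.95, 10.10, 10.01 and 10.19 with IL4. The groups overlapped, and the log2 fold change was 0.08 (SE 0.04, 95% interval -0.01 to 0.17, limma adjusted p = 0.18). Without the lowest IL4 library, shKDM1A IL4 replicate 1, it was 0.12 with a limma adjusted p of 0.037, and without the highest, replicate 4, it was 0.04 with a limma adjusted p of 0.51.

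The IL4 effect on Rel was smaller in shKDM1A than in shGFP cells by 0.29 log2 units (log2 difference -0.29, SE 0.06, limma adjusted p = 0.0085). Only 71 of the 12905 genes, Rel counted, had a difference this negative or more. This difference was tested as the interaction of IL4 and hairpin in the model of all 16 libraries. It stayed past the threshold with each library left out in turn, with log2 values between -0.34 and -0.26 and limma adjusted p between 0.0011 and 0.022.

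Nfkb1, at chr3:135247619-135354511 (mm9, minus strand, NM_008689), encodes p105 and its product p50, the usual partner of RELA and c-Rel. Its log2 values were 11.80, 11.79, 11.74 and 11.76 in shGFP and 12.08, 12.15, 12.07 and 12.10 in shGFP IL4. In shKDM1A cells they were 11.69, 11.69, 11.65 and 11.69 without and 12.20, 12.20, 12.20 and 12.22 with IL4. In both lines every IL4 library lay above every untreated one. The log2 fold change was 0.33 in shGFP (SE 0.02, limma adjusted p = 3.0e-09) and 0.52 in shKDM1A (SE 0.02, limma adjusted p = 1.2e-11), or 1.26-fold and 1.44-fold. The IL4 effect was thus larger in shKDM1A cells, by 0.19 log2 units (SE 0.03, limma adjusted p = 0.00089), the opposite direction to Rel. Without each library in turn this difference lay between 0.18 and 0.21.

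Rel and Nfkb1 were the 2 genes of the 10 whose IL4 effect differed between the lines, where 6.13% of all genes tested did (3.56% more positive and 2.57% more negative in shKDM1A). Nfkbie came next, with a log2 difference of 0.15 (SE 0.05, limma adjusted p = 0.087) that passed the threshold without shGFP replicate 1 (0.18, limma adjusted p = 0.032). For the other 7 genes the difference lay between -0.07 (Nfkb2) and 0.06 (Nfkbia), with limma adjusted p between 0.25 and 0.88. The widest of those 95% intervals, for Relb and Bcl3, reached from -0.13 to 0.18 and from -0.20 to 0.09.

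**Figure D3:**
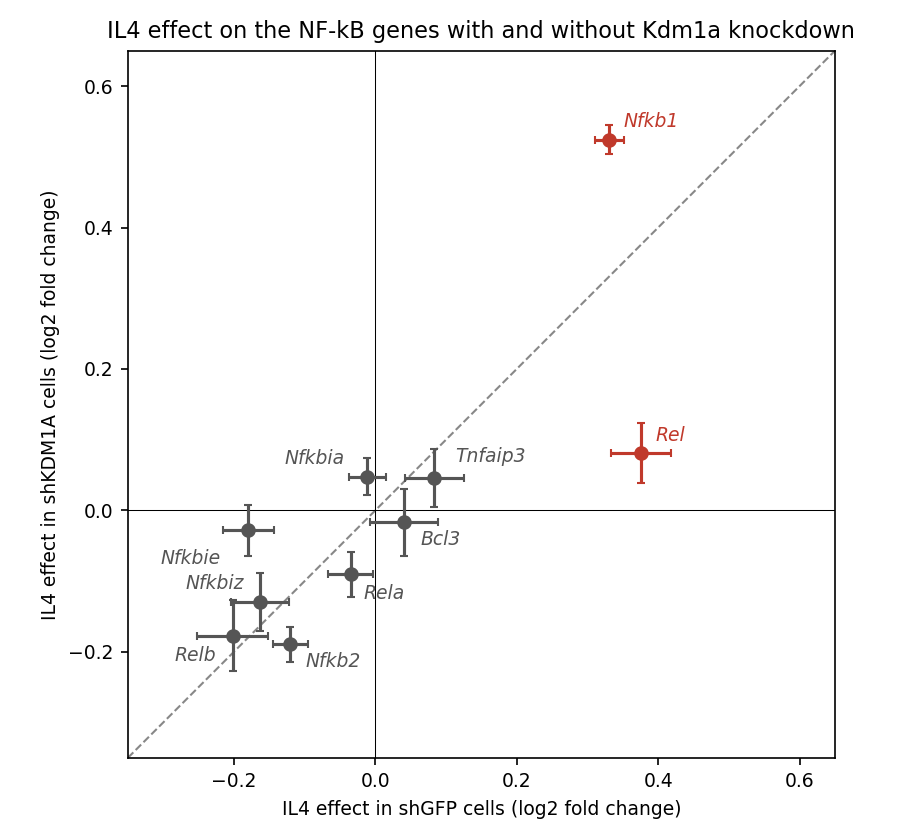
IL4 effect (log2 fold change) in shGFP cells (x axis) and in shKDM1A cells (y axis) for the 10 genes; points are limma estimates from 4 libraries a group, bars are standard errors and the dashed line marks equal effects. Rel (0.38 and 0.08) lies to the right of the line and Nfkb1 (0.33 and 0.52) above it, and these 2, in red, are the genes whose difference passed the test.

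The length-adjusted log2 difference between Rel and Rela within a library was -1.96 ± 0.06 in shGFP, -1.55 ± 0.08 in shGFP IL4, -2.08 ± 0.09 in shKDM1A and -1.91 ± 0.12 in shKDM1A IL4 (SD, n = 4). For Rel and Nfkb1 the difference was -2.53 ± 0.05, -2.48 ± 0.09, -2.56 ± 0.03 and -3.01 ± 0.10 in the same order. The transcripts of Rel and Nfkb1 thus rose side by side in shGFP cells, while in shKDM1A IL4 cells Rel was lower relative to Nfkb1 than in any library of the other groups. Another length would shift these levels in all groups alike.

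The other 3 subunit genes did not rise. Rela, at chr19:5637541-5648134 (mm9, plus strand, NM_009045), encodes p65, the main activating subunit of the canonical pathway. It ranged from 10.54 to 10.61 in shGFP and from 10.51 to 10.58 in shGFP IL4, with overlapping groups and a log2 fold change of -0.03 (95% interval -0.10 to 0.03, limma adjusted p = 0.49). In shKDM1A cells it ranged from 10.51 to 10.67 without and from 10.45 to 10.54 with IL4. That log2 fold change of -0.09 (SE 0.03, limma adjusted p = 0.045) passed the threshold only just, and it failed without any 1 of 12 of the 16 libraries (limma adjusted p up to 0.15).

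Relb and Nfkb2 make up the dimer of the non-canonical pathway, RELB with p52, and both fell with IL4 in both lines. Relb, at chr7:20191572-20214787 (mm9, minus strand, NM_001290457), was at 8.77, 8.77, 8.66 and 8.87 in shGFP and at 8.49, 8.60, 8.64 and 8.54 in shGFP IL4, without overlap (log2 fold change -0.20, SE 0.05, limma adjusted p = 0.0066). In shKDM1A cells it ranged from 8.69 to 8.87 without and from 8.54 to 8.70 with IL4, with a slight overlap (log2 fold change -0.18, SE 0.05, limma adjusted p = 0.014). Nfkb2, at chr19:46379227-46386580 (mm9, plus strand, NM_001177369), was at 10.59, 10.66, 10.64 and 10.71 in shGFP and at 10.57, 10.53, 10.54 and 10.48 in shGFP IL4. The groups did not overlap (log2 fold change -0.12, SE 0.02, limma adjusted p = 0.0015). In shKDM1A it went from between 10.70 and 10.73 to between 10.49 and 10.55 (log2 fold change -0.19, SE 0.02, limma adjusted p = 2.1e-05). Nfkb2 thus moved against Nfkb1, its closest relative.

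Among the inhibitors, IL4 lowered Nfkbie and Nfkbiz in shGFP cells. Nfkbie, at chr17:45692649-45700117 (mm9, plus strand, NM_008690), encodes IkB-epsilon, a cytoplasmic inhibitor. It was at 8.24, 8.39, 8.31 and 8.42 in shGFP and at 8.23, 8.18, 8.12 and 8.12 in shGFP IL4 (log2 fold change -0.18, SE 0.04, limma adjusted p = 0.0012). The lowest untreated library lay just above the highest treated one. In shKDM1A cells it ranged from 8.32 to 8.42 without and from 8.33 to 8.38 with IL4, and the log2 fold change was -0.03 (95% interval -0.10 to 0.05, limma adjusted p = 0.63).

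Nfkbiz, at chr16:55811490-55838754 (mm9, minus strand, NM_030612), encodes IkB-zeta, a nuclear cofactor for a subset of NF-kB targets. It was at 6.74, 6.58, 6.69 and 6.59 in shGFP and at 6.54, 6.47, 6.53 and 6.40 in shGFP IL4 (log2 fold change -0.16, SE 0.04, limma adjusted p = 0.0071). All IL4 libraries were below all untreated ones. In shKDM1A cells it ranged from 6.49 to 6.61 without and from 6.35 to 6.47 with IL4 (log2 fold change -0.13, SE 0.04, limma adjusted p = 0.027). That call was lost without shKDM1A replicate 1 or 2 or shKDM1A IL4 replicate 1 or 3 (limma adjusted p up to 0.09).

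Nfkbia, Tnfaip3 and Bcl3 did not pass the test for IL4 in either line. Nfkbia, at chr12:56590396-56593634 (mm9, minus strand, NM_010907), was at 11.02, 10.98, 10.94 and 11.00 in shGFP and at 11.02, 10.98, 10.93 and 10.97 in shGFP IL4. The values nearly coincided, with a log2 fold change of -0.01 (95% interval -0.07 to 0.04). Tnfaip3, at chr10:18720717-18735216 (mm9, minus strand, NM_009397), ranged from 7.70 to 7.80 and from 7.71 to 7.86, with a log2 fold change of 0.08 (limma adjusted p = 0.16) that passed without shGFP IL4 replicate 3 (0.12, limma adjusted p = 0.041). Bcl3, at chr7:20393811-20408104 (mm9, minus strand, NM_033601), encodes a nuclear IkB-like partner of p50 and p52 dimers. It ranged from 7.97 to 8.16 and from 8.07 to 8.19 (log2 fold change 0.04, 95% interval -0.06 to 0.14). In shKDM1A cells the 3 log2 fold changes were 0.05, 0.05 and -0.02. Bcl3 shares 161 exonic bases with Gm16175 on the opposite strand and reads of both strands were counted, so its value may hold reads of either.

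In shKDM1A cells as a whole, 5 of the 10 genes passed the IL4 test, 1 higher and 4 lower, where 27.1% of all genes tested did (13.6% higher and 13.5% lower). Without a filter on low values, which adds genes both to the model fit and to the adjustment, 3 of the 10 passed.

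**Figure D4:**
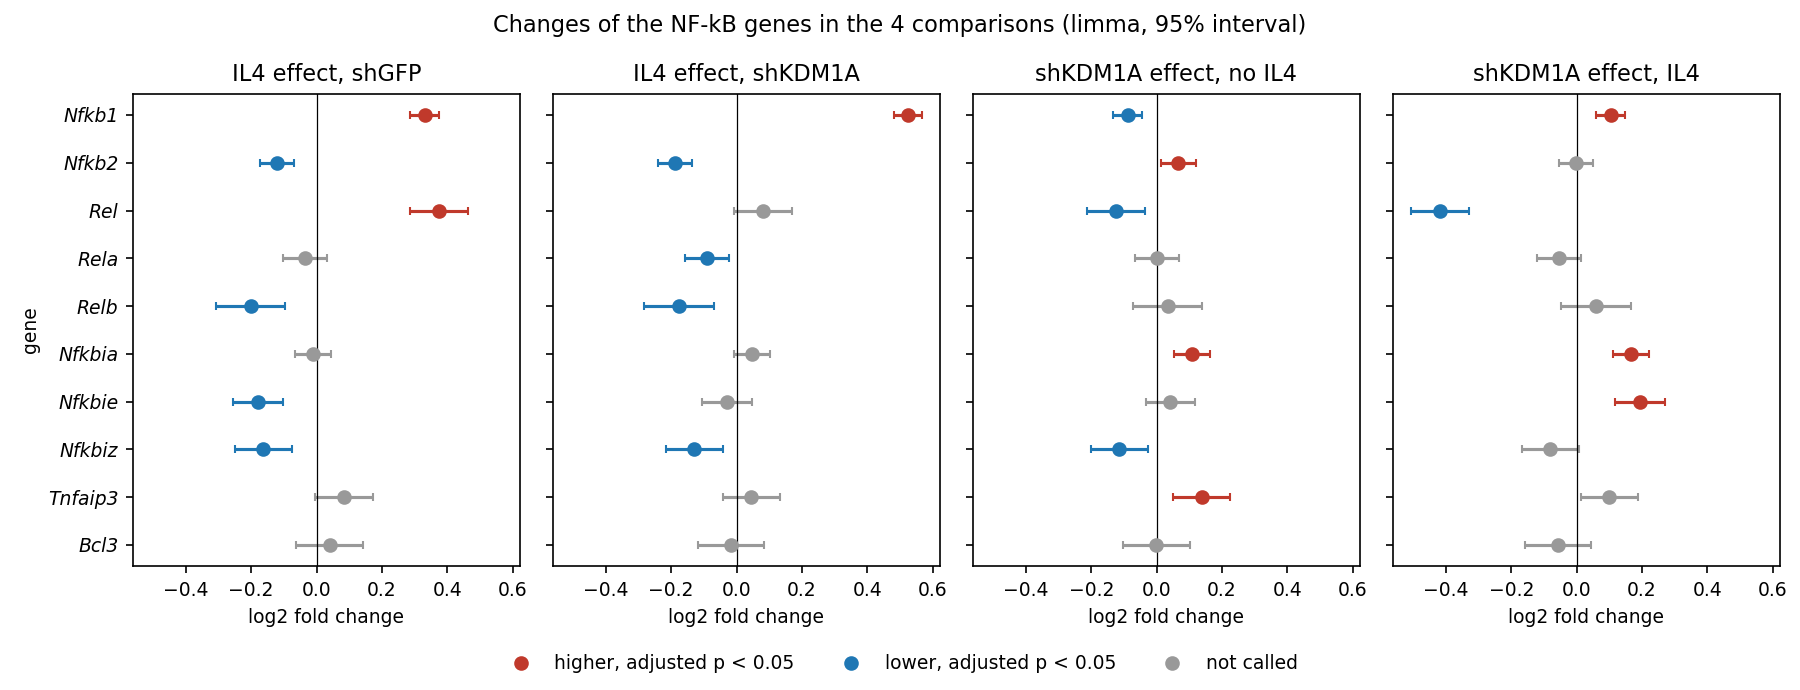
Log2 fold change (x axis) of the 10 genes (y axis) in each of the 4 comparisons; points are limma estimates and bars 95% intervals, red for higher and blue for lower at an adjusted p under 0.05 and grey for genes that did not pass. The largest values are those of Nfkb1 with IL4 in shKDM1A cells (0.52) and of Rel with knockdown under IL4 (-0.42).

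Knockdown of Kdm1a changed the same genes by little in the absence of IL4. Tnfaip3, Nfkbia and Nfkb2 were higher and Rel, Nfkbiz and Nfkb1 lower in shKDM1A than in shGFP cells, each by less than 0.14 log2 units. This makes 6 of 10, 3 in each direction, where 38.2% of all genes tested passed (19.7% higher and 18.4% lower). Which direction held more of all genes turned with quantile normalization, here and with IL4. The comparison shares the shGFP libraries with the IL4 comparison above, and it shares the shKDM1A libraries with the one in that line.

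Tnfaip3 was at 7.73, 7.80, 7.70 and 7.70 in shGFP and at 7.85, 7.86, 7.88 and 7.89 in shKDM1A (log2 fold change 0.14, SE 0.04, limma adjusted p = 0.014). Nfkbia was at 11.02, 10.98, 10.94 and 11.00 against 11.15, 11.07, 11.08 and 11.07 (log2 fold change 0.11, SE 0.03, limma adjusted p = 0.0036). For both brakes every knockdown library lay above every control library. Nfkb1 was lower without overlap (log2 fold change -0.09, SE 0.02, limma adjusted p = 0.0027), and these 3 calls held without any 1 library. Rel (-0.12, SE 0.04, limma adjusted p = 0.029), Nfkbiz (-0.11, SE 0.04, limma adjusted p = 0.037) and Nfkb2 (0.07, SE 0.02, limma adjusted p = 0.041) lost their calls without 1 of several libraries. The libraries were shGFP replicate 1 or 3 or shKDM1A replicate 1 or 3 for Rel. They were shGFP replicate 1 or 3 or shKDM1A replicate 2, 3 or 4 for Nfkbiz, and shGFP replicate 1, 2 or 3, shGFP IL4 replicate 2 or shKDM1A replicate 1, 2 or 3 for Nfkb2. The highest adjusted p was 0.083 for Rel, 0.13 for Nfkbiz and 0.14 for Nfkb2.

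With IL4 present, the knockdown difference in Rel was the largest of the 10. Rel lay between 10.42 and 10.55 in shGFP IL4 and between 9.95 and 10.19 in shKDM1A IL4, without overlap (log2 fold change -0.42, SE 0.04, limma adjusted p = 6.9e-07), or 0.748-fold. It was the 125th lowest of 12905 values. Nfkbie (log2 fold change 0.19, SE 0.04, limma adjusted p = 0.0004), Nfkbia (0.17, SE 0.03, limma adjusted p = 8.0e-05) and Nfkb1 (0.10, SE 0.02, limma adjusted p = 0.00067) were higher in the knockdown, and the libraries of none of these 4 overlapped between the groups. So 4 of 10 passed, 3 higher and 1 lower, where 40.7% of all genes tested did (20.9% higher and 19.8% lower), so the share was no higher among the 10 than in the background. These 4 calls held without any 1 library. Tnfaip3 was at 7.83, 7.86, 7.71 and 7.85 in shGFP IL4 and at 7.84, 8.05, 7.90 and 7.87 in shKDM1A IL4 (log2 fold change 0.10, limma adjusted p = 0.065), and it passed without shKDM1A IL4 replicate 1 (0.12, limma adjusted p = 0.034). Nfkbiz, at -0.08 (limma adjusted p = 0.13), passed without shGFP IL4 replicate 4 (-0.11, limma adjusted p = 0.0499). Rela, Relb, Bcl3 and Nfkb2 lay between -0.06 and 0.06.

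The remaining genes of the pathway were described from 3 lists, which hold none of the 10. The lists were chosen with earlier results of these data known, so their shares are a description and not a test. Over all genes tested the median log2 fold change was between -0.0005 and -0.0027 in the 4 comparisons. The kinases and adaptors carry the signal from receptors to IkB, and 34 of 34 were tested. With IL4 in shGFP cells 3 were higher and 9 lower, a share of 35.3% where 26.9% of all genes tested passed, and the median log2 fold change was 0.00. In shKDM1A cells 3 were higher and 8 lower, 32.4% against 27.1%. Traf1, an adaptor of TNF receptors and itself a known NF-kB target, fell from a mean of 8.35 to 7.73 (log2 fold change -0.61, SE 0.04, limma adjusted p = 4.7e-09). In shKDM1A cells it went from 8.14 to 7.91, and this IL4 effect differed from that in shGFP cells by 0.38 (SE 0.06, limma adjusted p = 0.00073). Ikbke, an IkB kinase-related kinase, fell in both lines (-0.44 and -0.33), and Ripk2, the kinase of NOD receptors, rose in both (0.31 and 0.32). Map3k14, which encodes the kinase NIK of the non-canonical pathway, rose by 0.30 in shKDM1A cells (SE 0.04, limma adjusted p = 1.5e-05). In shGFP cells its mean went from 9.13 to 9.32. Myd88, the main Toll-like receptor adaptor, was the only other one with a called difference (0.20, SE 0.05, limma adjusted p = 0.022). These 2 of 34 are 5.88%, against 6.13% of all genes tested.

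Knockdown changed 21 of these 34 genes without IL4 (61.8%, against 38.2% of all genes tested), 10 higher and 11 lower, and 20 with IL4 (58.8% against 40.7%), 9 higher and 11 lower. The median log2 fold change was -0.02 in both states. Birc3, which encodes the ubiquitin ligase cIAP2, was higher in the knockdown by 0.41 without IL4 and by 0.51 with it (SE 0.03, limma adjusted p = 5.4e-08 and 2.9e-09). Ripk2 was higher by 0.27 in both states. Ikbkg, which encodes NEMO, the regulatory subunit of the IkB kinase complex, was higher by 0.29 without IL4. With IL4 its means were 10.06 in shGFP and 10.27 in shKDM1A. Irak2, a kinase of the Toll-like receptor pathway, was higher by 0.22 with IL4. Without IL4 its means were 9.83 in shGFP and 10.06 in shKDM1A.

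Of 20 other inhibitors and negative regulators, 20 were tested. IL4 raised 4 and lowered 4 in shGFP cells, and it raised 4 and lowered 7 in shKDM1A cells, shares of 40.0% and 55.0% against 26.9% and 27.1% of all genes tested. Nfkbib, which encodes IkB-beta, fell in shGFP cells from 9.60 to 9.36 (log2 fold change -0.24, SE 0.04, limma adjusted p = 0.00028), and Tnip1, an A20-binding inhibitor, from 10.76 to 10.56 (-0.20, SE 0.03, limma adjusted p = 8.9e-05). In shKDM1A cells Nfkbib was at 9.56 and 9.55 and Tnip1 at 10.69 and 10.70. Both differences between the lines passed the test (0.23, limma adjusted p = 0.027, and 0.21, limma adjusted p = 0.0092), as did that of Tnip3, a relative of Tnip1 (0.18, limma adjusted p = 0.0017). Those 3 made up 15% of the list, where 6.13% of all genes tested had a called difference. Tnip3 rose with IL4 in shKDM1A cells by 0.27 and Zc3h12a, which encodes the RNase Regnase-1, by 0.22. In shGFP cells their means went from 11.05 to 11.14 and from 7.80 to 7.95. Nlrx1 rose by 0.28 in shGFP and by 0.25 in shKDM1A cells.

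Knockdown raised 5 and lowered 4 of the 20 without IL4, and it raised 7 and lowered 4 with IL4, 45.0% and 55.0% of the list against 38.2% and 40.7% of all genes tested. The median log2 fold change was -0.01 without and 0.04 with IL4. Nlrc5 (0.32 and 0.26) and Nlrx1 (0.27 and 0.24) were higher in both states, and Pdlim2, which encodes a ubiquitin ligase for RELA, was higher by 0.22 without IL4. Nfkbid, which encodes the nuclear IkB-NS, was lower with IL4 by 0.36 (SE 0.05, limma adjusted p = 1.5e-05).

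Of 45 known NF-kB target genes, 32 passed the filter on low values, so these counts cover 32 only. IL4 raised 7 and lowered 14 of them in shGFP cells, or 65.6% where 26.9% of all genes tested passed, and it raised 6 and lowered 8 in shKDM1A cells, or 43.8% against 27.1%. Ptgs2, the inducible cyclooxygenase, rose from 8.31 to 9.01 (log2 fold change 0.71, SE 0.04, limma adjusted p = 1.8e-10) and the chemokine gene Ccl2 from 7.11 to 7.79 (0.68, SE 0.04, limma adjusted p = 3.7e-10). Tnf, the inflammatory cytokine gene, fell from 10.19 to 9.56 (-0.63, SE 0.04, limma adjusted p = 4.4e-09). In shKDM1A cells Ptgs2 rose by 0.90, Ccl2 by 0.59 and Junb, an AP-1 subunit gene, by 0.45. The mean of Tnf went from 9.94 to 9.50 in shKDM1A cells, and that of Junb from 11.76 to 12.11 in shGFP cells. Known targets thus moved both ways with IL4, and the median log2 fold change over the 32 was -0.05 in shGFP and -0.03 in shKDM1A cells.

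Knockdown raised 14 and lowered 8 of the 32 targets without IL4, and raised 14 and lowered 6 with IL4, with median log2 fold changes of 0.06 and 0.04. These are 68.8% and 62.5% of the 32, against 38.2% and 40.7% of all genes tested. Cd83, a surface protein of activated antigen-presenting cells, was lower by 0.58 without and by 0.77 with IL4. Cxcl10, a chemokine gene that also responds to interferon, was higher by 0.54 and 0.84. Gadd45b, a stress-response gene, was higher by 0.51 without IL4 and Slfn2 by 0.65 with it. With IL4 the means of Gadd45b were 7.72 in shGFP and 8.15 in shKDM1A. Without IL4 those of Slfn2 were 10.88 in shGFP and 11.18 in shKDM1A. The IL4 effect differed between the lines for 7 of the 32 (21.9%, against 6.13% of all genes tested), 6 more positive in shKDM1A and 1 more negative. Slfn2 (0.35, SE 0.04, limma adjusted p = 4.6e-05) and Cxcl10 (0.30, SE 0.08, limma adjusted p = 0.027) had the largest positive differences, and Plau, the urokinase gene, had the negative one (-0.22, SE 0.05, limma adjusted p = 0.011).

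**Figure D5:**
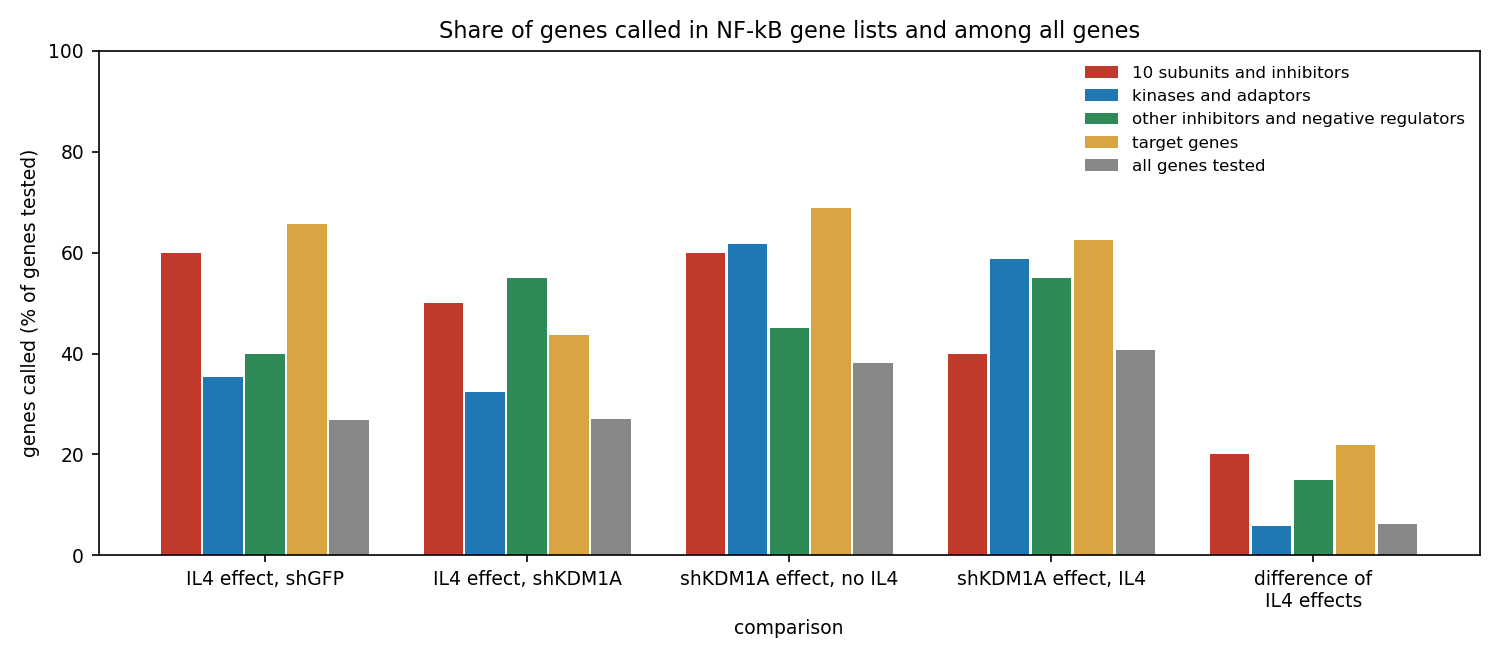
Percent of genes that passed the test (y axis) in each comparison (x axis) for the 10 subunits and inhibitors, the 3 lists of other pathway genes and all 12905 genes tested; each bar is 1 list of 10, 34, 20 or 32 genes tested, or all genes. Among the target genes 65.6% passed for IL4 in shGFP cells against 26.9% of all genes. The lists were chosen with earlier results of these data known.

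Genes whose pattern over the 16 libraries was among the nearest to that of Nfkb1, the member with the widest range of group means, were Irf5, Vim, Ubash3b and Jarid2. Their root mean square difference from Nfkb1, after centring each gene on its own mean, was between 0.06 and 0.07 log2 units. Irf5, which encodes an interferon regulatory factor of macrophages, had group means of 12.00 in shGFP, 12.39 in shGFP IL4, 12.03 in shKDM1A and 12.47 in shKDM1A IL4.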

How the data were processed

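RNA-seq of 16 RAW264.7 cell libraries was analysed (4 groups of 4, from the sample labels). Per the file headers and the study's methods, the authors aligned reads to mm9 with HISAT2 and Bowtie2, counted tags in exons on both strands with HOMER (1 row per gene) and ran its DESeq2 option, and the deposited values per library are normalised and on a log2 scale; which log transformation was used is not given in the sources used here. Genes with low counts can be pulled together on such a scale, and fold changes of low genes may then be understated. Columns of fold changes and p-values for comparisons made by the authors were not used, in this table or in the BMDM table. In the BMDM table they are, by the series text, the only ones.

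Values were tested with limma 3.58.1 (R 4.3.3): 1 mean per group over 16 libraries, 12905 of 25094 genes (kept if 4 or more libraries reached a value of 1), Benjamini-Hochberg adjustment over those genes and a threshold of 0.05. No pseudocount was added. The 5 contrasts were IL4 in each line, shKDM1A against shGFP without and with IL4, and the difference of the IL4 effects. The procedure was tested on simulated data. Libraries of a group differed by a median of 0.036 to 0.056 log2 units per gene and no pair was identical. Lengths came from the table; overlapping exons were read from GENCODE vM1 (mm9).

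The members, lists and tests were chosen with earlier results of these data known. Named genes are the 10 members, Kdm1a, the 3 genes with the largest called change per list and comparison, and the 5 genes nearest to the member with the widest range of group means, of which 1 is not reported here. Some macrophage markers are named besides these, as examples from their list. Alternatives were another filter, scaling, prior or set of groups, a replicate block, and each library left out. The chromatin binding, accessibility and contact files were not used here. The protein comparison planned for the subunits was not made.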

Additional observations from a re-analysis of the deposited data

Results flagged for a closer look

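The IL4 effect on Rel and on Nfkb1 differed between shKDM1A and shGFP cells by the test of the difference itself, by -0.29 log2 units for Rel (SE 0.06, limma adjusted p = 0.0085) and by 0.19 for Nfkb1 (SE 0.03, limma adjusted p = 0.00089). Rel rose in 4 of 4 shGFP IL4 libraries above all untreated ones, and Nfkb1 did so in both lines.

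A single library stood apart from the other 3 of its group in 2 of 40 groups of values examined by Dixon's test, about as many as chance gives (1 in 20). Nfkbia in shKDM1A replicate 1, at 11.15, was the highest of a group whose other libraries lay at 11.07 or 11.08. Bcl3 in shGFP IL4 replicate 2, at 8.19, was the highest of a group whose others lay at 8.07 or 8.08.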

How the results depend on the processing

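The differences of the IL4 effect on Rel and Nfkb1, their IL4 effects in shGFP cells and the knockdown effects with IL4 on Rel, Nfkb1, Nfkbia and Nfkbie kept direction and threshold in every alternative run. No called value of a member changed sign. Without a filter on low values, 3 of 10 members passed for IL4 in shKDM1A cells (Nfkbiz and Rela lost) and 4 for knockdown without IL4 (Rel and Nfkbiz lost, limma adjusted p = 0.054 and 0.065), with 16606 genes in the adjustment. Rela for IL4 in shKDM1A also lost its call with median centring, quantile normalization or only the groups compared (limma adjusted p from 0.077 to 0.11). Nfkb2 for knockdown without IL4 lost its call with the stricter filter, only the groups compared, quantile normalization or a trended prior (limma adjusted p from 0.058 to 0.11), and Tnfaip3 for knockdown with IL4 gained one with median centring (limma adjusted p = 0.042). Over all member values, 13 lost and 2 gained a call under other settings while 325 did neither, and 32 lost and 5 gained one with 1 library left out while 763 did neither.

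With 1 library left out, the members passing numbered 6 to 7 for IL4 in shGFP, 3 to 5 for IL4 in shKDM1A, 3 to 6 for knockdown without IL4, 4 to 5 with IL4 and 2 to 3 for the difference. The genes passing numbered 2975 to 3619, 3018 to 3539, 4419 to 5048, 4697 to 5293 and 530 to 1104 in the same order.

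The balance of directions over all genes depends on the scaling. For knockdown without IL4, 2548 genes were higher and 2379 lower, against 2225 and 2929 with quantile normalization. With IL4 they were 2694 and 2561, against 2384 and 2917 with quantile normalization and 2972 and 2274 with median centring. For IL4 in shKDM1A cells 1752 genes were higher and 1745 lower, against 2025 and 1560 with median centring. For the difference of the IL4 effects 459 were more positive and 332 more negative, against 558 and 285 with median centring.

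The span of length-adjusted levels was 5.62 log2 units, 5.12 without division by length, when Nfkb1 was the highest, and 6.00 with GENCODE vM1 exon lengths, an alternative added after seeing the data.

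Replicate numbers did not pair the libraries: the correlation of deviations passed 0.1 for 3 of 24 same-numbered pairs (-0.34 to 0.27), and 6 of 16 libraries correlated best with their own number. With the replicate block, 732 genes passed for the difference against 791. The block left Rela out for IL4 in shKDM1A (limma adjusted p = 0.063) and Nfkb2 for knockdown without IL4 (limma adjusted p = 0.068), and brought in Tnfaip3 for knockdown with IL4 (limma adjusted p = 0.042).

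The spread within a gene sets which small differences pass: Tnfaip3 at 0.08 (SE 0.04) for IL4 in shGFP cells did not, and Nfkb1 at -0.09 (SE 0.02) for knockdown without IL4 did.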
